A study of Homo sapiens with 16 samples.

Results

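The DMSO control cultures were set against all cultures that had received a compound, and the genes described are those for which both DMSO libraries lay outside the range of the 14 treated libraries. Of 24515 genes tested, 1748 met this rule (7.13%), with both DMSO libraries above every treated library for 880 genes (3.59%) and below every treated library for 868 (3.54%). Each gene was also examined after a correction for the guanine and cytosine (GC) content of its transcripts, since the order of the libraries moved with GC content.

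The cultures were planar preparations of islet cells differentiated from embryonic stem cells of the established human line HUES8 (HUES08 in the labels), wild type in genotype, and were sequenced in bulk as total RNA. The agents were in the medium over stage 5 and the following 7 days of stage 6. The compounds had been predicted with a computational tool, DBSOMA, to act on beta-cell maturation. The solvent DMSO stood alone in 2 libraries, and 7 compounds had 2 libraries each: Colchicine at 10 nM, Epirizole at 2.5 uM, Ly-294002 at 120 nM, Moxifloxacin at 1.1 uM, Rottlerin at 1.23 uM, Vardenafil at 125 nM and Rimonabant at 125 nM. All 16 libraries shared the label batch 1, came from 1 cell line and had gone through the same differentiation. Nothing in the labels states that both libraries of a group are from separate cultures. The p-values thus reflect only the spread seen here, possibly a technical one. The treated libraries differ from DMSO in 7 unrelated agents, so anything held in common by them cannot be told apart from anything particular to the 2 DMSO libraries.

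The libraries held 23294377 to 30701868 reads, DMSO 1 the fewest. Rimonabant 2 stood apart from the other libraries in its GC profile, described below. The defining markers of endocrine cells were present in every group, with the summed level of the 23 endocrine genes at 357 to 522 CPM (a gene's reads relative to all reads of its library) in DMSO and 270.2 to 799 CPM in the treated libraries. Of these 23 genes, none had both DMSO libraries outside the treated range.

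Several families of RNA meet in these genes. The 7SL RNA, transcribed from RN7SL1 and its near copies by RNA polymerase III, is the scaffold of the signal recognition particle, which brings ribosomes that make secreted and membrane proteins to the endoplasmic reticulum. Immediate-early genes such as EGR1 and EGR3 encode transcription factors that appear within minutes of a signal, without new protein synthesis, and in islet cells they respond to glucose and calcium. PCSK1N encodes proSAAS, a granule protein that inhibits the prohormone convertase PCSK1. GC content matters to RNA sequencing because amplification and fragment recovery depend on base composition, so libraries can differ in how well they represent GC-rich and GC-poor transcripts.

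No gene passed the threshold when the mean of the 7 compounds was tested against DMSO. With edgeR's quasi-likelihood test, 0 genes were called higher and 0 lower in the treated libraries at an adjusted p of 0.05, and the smallest adjusted p was 0.0954. At an unadjusted p under 0.05 there were 4080 genes (16.6%), 2068 higher (8.44%) and 2012 lower (8.21%) in the treated libraries. DESeq2 called 539 genes higher and 175 lower. With GC content as an offset, edgeR again called 0 genes, and 2314 (9.44%) had an unadjusted p under 0.05. The values that follow therefore describe where the libraries lay, and the log2 differences are those of the mean of the 7 compounds minus DMSO from the edgeR fit. Because the genes were chosen by the order of the same libraries, their differences are a description and not a test of that order.

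The order of the libraries was more often extreme for DMSO than for any other group, by counts of genes. The same rule, applied to each labelled pair of libraries against the other 14, gave 1291 genes for Rimonabant (5.27%), 654 for Colchicine (2.67%), 501 for Vardenafil (2.04%), 390 for Rottlerin (1.59%), 338 for Ly-294002 (1.38%), 220 for Moxifloxacin (0.897%) and 147 for Epirizole (0.60%). After the GC offset the count for DMSO was 740 (3.02%), 301 above (1.23%) and 439 below (1.79%), and Colchicine had the highest count, 823 (3.36%), followed by DMSO, Vardenafil with 636 and Rimonabant with 599. The DMSO libraries were also the closest pair, with a median absolute log2 difference of 0.10 between them over genes of at least 10 CPM, against 0.11 to 0.20 for the 7 compounds. They were not copies of 1 library: a chi-square per degree of freedom of 8.23 between their counts was far above 1, although it was the lowest of the 8 pairs, the others lying at 10.3 to 29.6.

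**Figure D1:**
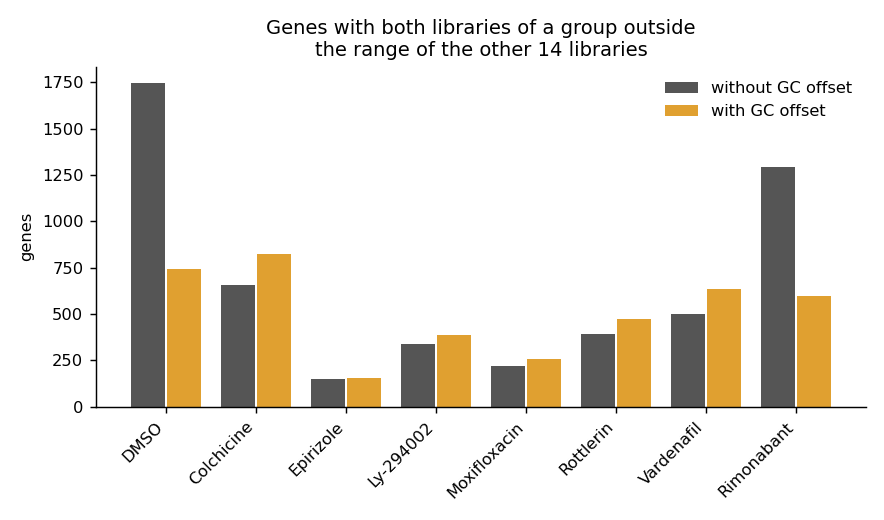
Number of genes (vertical axis) for which both libraries of a group lay outside the range of the other 14 libraries, for each of the 8 groups (horizontal axis), without and with the GC offset. DMSO has 1748 genes without the offset and 740 with it, and Rimonabant 1291 and 599, whereas the counts of the other 6 groups are higher with the offset.

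Most of the genes lay just beyond the edge of the treated range. The median gap between the nearer DMSO library and the nearest treated library was 0.04 on the log2 scale for the genes above and 0.06 for the genes below. A gap of at least 0.2 was found for 34 genes above and 95 below, and 32 and 85 of these were still outside after the GC offset. RBM41 was the narrowest inclusion, its lower DMSO library and its highest treated library both reading 57.7 CPM. YLPM1 was the narrowest exclusion on the same side, with its lower DMSO library and the highest treated library both at 261 CPM. PPP2R1A (147 CPM on both sides of the edge) and RPTOR (44.3 CPM) marked the same edge for the genes below. At the other extreme SLC16A11, of the monocarboxylate transporter family, lay at 0.22 and 0.19 CPM in DMSO and at 0.54 to 2.26 CPM in the treated libraries, a gap of 1.24 on the log2 scale at a level of few reads.

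The genes on each side differed in base composition. The 880 genes above had a median transcript GC of 41.7% (quartiles 39.3% and 44.5%) and the 868 genes below a median of 60.3% (56.5% and 63.4%), against 48.9% over all tested genes (43.1% and 56.2%). Genes above were also longer, with a median longest transcript of 4374 bases against 3014 for the genes below and 2635 over all. Both sets held more protein-coding genes, 85.9% above and 87.0% below against 66.1% of all genes with an annotated transcript, and both lay at higher levels, with medians of 52.5 and 26.9 CPM against 5.59 CPM. The median log2 difference was -0.25 for the genes above and 0.39 for the genes below, and -0.12 and 0.20 after the GC offset.

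The share of genes outside the treated range followed GC content step by step. The genes were split by GC into 5 bins of equal size. In the bin of lowest GC, up to 42.0%, DMSO lay above the treated range for 9.93% of genes and below it for 0.28%. In the next bin, up to 46.5% GC, the shares were 5.82% and 0.34%, and in the middle bin, up to 51.6%, they were 1.97% and 1.35%. In the bin after it, up to 57.8%, they had crossed to 0.56% and 3.83%. In the bin of highest GC, DMSO lay above for 0.26% and below for 12.5%. With the GC offset the shares above lay between 1.11% and 1.26% in all 5 bins and those below between 1.29% and 2.55%. Over the 23352 tested genes with a GC value the log2 difference had a Spearman correlation of 0.43 with GC, and 0.03 after the offset, as a description over genes measured in the same libraries. The offset was fitted on GC in these same libraries. The even shares and the low correlation after it therefore follow from its making and are no test of a cause.

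**Figure D2:**
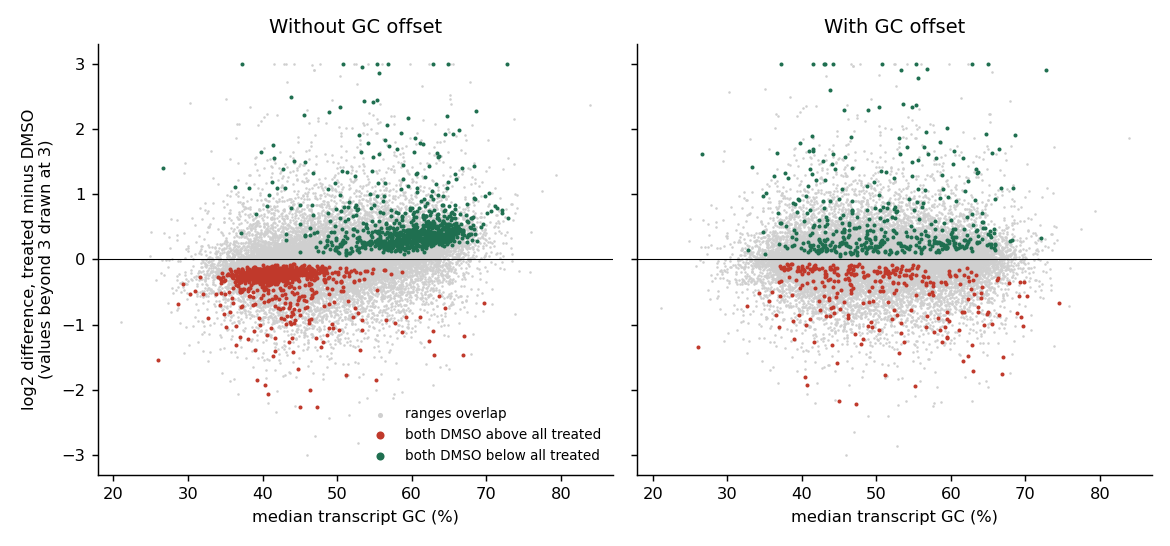
Log2 difference of each tested gene (vertical axis, treated minus DMSO) against the median GC content of its transcripts (horizontal axis, percent), without the GC offset on the left and with it on the right. Red genes, with both DMSO libraries above all treated ones, gather at low GC on the left panel (median 41.7%) and green genes at high GC (median 60.3%), while on the right panel both spread across the axis (medians 49.3% and 50.7%). The spread on the right follows from fitting the offset on GC.

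The 2 DMSO libraries had the lowest GC slopes of the 16. The slope, the log2 deviation of a library from the mean of all libraries per 10 percentage points of GC, was -0.13 in DMSO 1 and -0.16 in DMSO 2. Among the treated libraries it ran from -0.09 in Epirizole 2 to 0.09 in Rottlerin 1, with Rimonabant 2 alone at 0.32. The mean was -0.15 ± 0.03 (SD, n = 2) in DMSO and 0.02 ± 0.10 (SD, n = 14) in the treated libraries, a difference of -0.17 (exact permutation test over 120 arrangements, two-sided p = 0.0833, smallest possible 0.00833). Without Rimonabant 2, the library of highest slope, the difference was -0.14 and the exact two-sided permutation p was 0.00952, the smallest that 105 arrangements allow. The difference itself was thus smaller without it, and the SD of the treated libraries was 0.05 in place of 0.10. Both permutation tests counted each library as a unit of its own, although the labels do not state that the libraries of a group are separate cultures. Rimonabant 2 is also the extreme library on the measure tested. The smaller p without it is therefore a description and no separate evidence. The non-overlapping genes without Rimonabant 2 numbered 756 above and 1025 below.

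**Figure D3:**
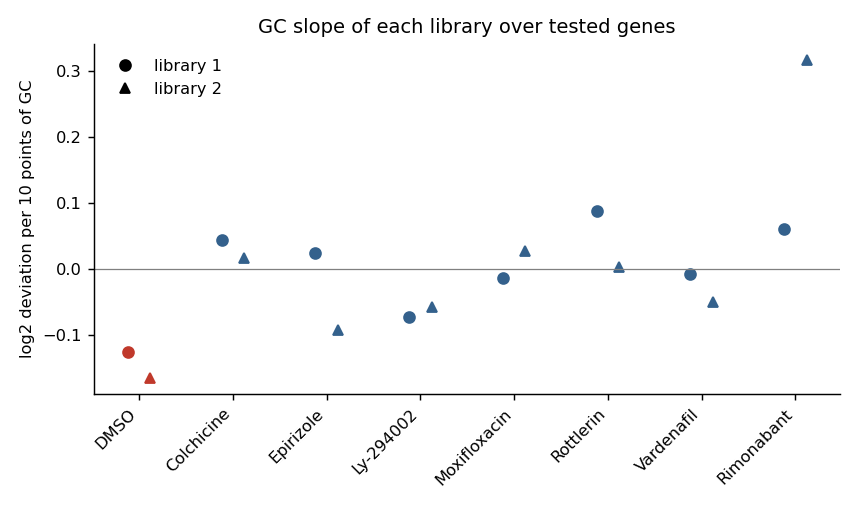
GC slope of each library (vertical axis, log2 deviation per 10 percentage points of transcript GC) by group (horizontal axis), circles for library 1 and triangles for library 2. Both DMSO libraries, at -0.13 and -0.16, lie under all treated libraries, and Rimonabant 2 stands apart at 0.32.

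The 14 treated libraries were not equally far from DMSO. Over the 880 genes above, the median deviation from the DMSO mean was smallest in Epirizole 2 (-0.14) and Ly-294002 1 (-0.14) and largest in Rimonabant 2 (-0.45), on the log2 scale. Over the 868 genes below, Epirizole 2 was again nearest at 0.19 and Rimonabant 2 farthest at 0.74. Epirizole 2 and Ly-294002 1 also had the treated slopes nearest to those of DMSO, -0.09 and -0.07.

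After the GC offset 520 of the 1748 genes (2.12% of all tested) stayed outside on the same side, 219 above (0.893%) and 301 below (1.23%). Those 219 had a median GC of 46.0% and the 301 a median of 55.8%, and the 661 and 567 genes that no longer lay outside had medians of 41.0% and 61.6%. As the offset was fitted on GC, this contrast in GC also follows from its making. Whether GC content accounts for the order of a single gene was not tested. For the genes with the fullest account, values with the offset are given beside those without it.

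RN7SL1 was the most abundant transcript among the named genes below the treated range. It measured 5240 CPM in DMSO 1 and 3722 CPM in DMSO 2. In the treated libraries it ran from 5745 CPM in Epirizole 2 through a median of 9068 to 10480 CPM in Rottlerin 1, so the groups did not overlap. The log2 difference was 0.92 (SE 0.16, adjusted p = 0.0954), and 0.69 with the GC offset (adjusted p = 0.334), where both DMSO libraries still lay below all others. In shares of all reads it held 0.516% and 0.367% in DMSO and 0.564% to 1.08% in the treated libraries. The 6 libraries with the lowest RN7SL1 share, both DMSO, Epirizole 2, both Ly-294002 and Vardenafil 2, were also the 6 with the lowest GC slope.

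RN7SL1 has a single exon of 299 bases with 62.9% GC. It lies within RPS29, on the opposite strand and outside its exons, and its exon is shared with the locus AL139099.4 on the same strand. RN7SL1 and RN7SL3 can be told apart by few bases, which bears on how reads are divided between them. In GENCODE 292 of 299 positions (97.7%) are identical between them, and RN7SL2 shares 295 with RN7SL1. RN7SL2 was listed at 0 reads in every library, as was RN7SK, another abundant RNA of the same polymerase, so the value of RN7SL1 cannot be separated from how the counting placed reads that fit several copies. RN7SL3 lay in the same order at a lower level, 262 and 238 CPM in DMSO against 265 to 406 CPM, with a log2 difference of 0.33 (SE 0.09) that was 0.12 with the GC offset, where the groups overlapped.

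The other short structural RNAs were split in direction. Of 46 listed, 22 were tested and 11 were at 0 in every library. DMSO was the higher group in 15 of the 22 and the lower in 7, and the median log2 difference was -0.37 (-0.38 with the offset) against -0.01 over all tested genes. Both DMSO libraries lay above the treated range for 3 of them, SCARNA7, RNU4-1 and RNY1, and below it for RN7SL1 and RN7SL3. Over all tested genes the shares were 3.59% above and 3.54% below. SCARNA7, a guide RNA of Cajal bodies, measured 134 and 137 CPM in DMSO and 68.2 to 126 CPM in the treated libraries, with a log2 difference of -0.49 (SE 0.10) and of -0.33 with the offset, still outside. RNU4-1, a U4 spliceosomal RNA, lay at 3.18 and 2.49 CPM against 1.09 to 2.32 CPM. SNORD3A, the U3 RNA of ribosomal RNA processing, varied widely, with 369 ± 240 CPM in DMSO (SD, n = 2) and 159 to 1851 CPM in the treated libraries. Its log2 difference was 1.30 (1.32 with the offset), in the direction of RN7SL1 and larger, but its groups overlapped. RMRP, also a polymerase III transcript, overlapped as well, at 1190 ± 188 CPM against 681 to 1426 CPM.

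SCARNA7 (minus strand, within an intron of KPNA4, 37.3% GC) and the mitochondrial proline tRNA MT-TP (chrM:15956-16023, minus strand, 33.8% GC) are shown as short transcripts of low GC that lay above the treated range. Of SCARNA7 the first 300 of 330 bases are given (chr3:160514937-160515236), and of MT-TP all 68. Capitals mark G and C.
SCARNA7: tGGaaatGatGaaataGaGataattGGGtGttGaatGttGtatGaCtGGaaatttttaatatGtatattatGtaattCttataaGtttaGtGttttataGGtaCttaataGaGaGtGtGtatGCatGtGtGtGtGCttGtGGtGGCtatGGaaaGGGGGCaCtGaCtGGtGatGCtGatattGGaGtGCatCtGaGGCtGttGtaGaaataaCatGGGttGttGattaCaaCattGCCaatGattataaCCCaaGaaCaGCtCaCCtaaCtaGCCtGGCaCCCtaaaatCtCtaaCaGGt
MT-TP: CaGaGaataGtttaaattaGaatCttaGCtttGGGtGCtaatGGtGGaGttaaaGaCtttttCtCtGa
MT-TP measured 18.6 and 21.3 CPM in DMSO and 9.77 to 17.9 CPM in the treated libraries, a log2 difference of -0.53 (SE 0.13) that was -0.35 with the offset, where it no longer lay outside. MZT1, a component of the gamma-tubulin ring complex with 32.0% GC, had the lowest GC of the genes outside the treated range with at least 10 CPM. It lay at 14.8 and 14.5 CPM against 7.19 to 13.8 CPM and overlapped after the offset. At the other end stood AMN with 73.0% GC, PLPPR3 with 71.2% and NOXA1 with 69.6%. All 3 lay below the treated range, PLPPR3 at 14.7 and 13.4 CPM against 17.7 to 40.1 CPM, and none of them did after the offset.

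EGR3 was highest in the 2 DMSO libraries. It measured 18.2 CPM in DMSO 1 and 17.0 CPM in DMSO 2, against 7.82 CPM in Moxifloxacin 1, a median of 10.3 and 16.5 CPM in Colchicine 2. Colchicine 2 and Epirizole 2, at 13.4 CPM, came nearest to DMSO. The log2 difference was -0.74 (SE 0.18, adjusted p = 0.0954). EGR3 has a high GC content, 64.5%, so the offset moved it away from 0, to -1.0007 (adjusted p = 0.201), and both DMSO libraries stayed above all others. An antisense locus that overlaps its exons, AC055854.1, had at most 1 read in any library.

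EGR1, the related zinc-finger factor, had the same order. It measured 500.3 and 558 CPM in DMSO and ran from 326 CPM in Rottlerin 2 through a median of 381 to 479.9 CPM in Colchicine 2, a log2 difference of -0.46 (SE 0.10, adjusted p = 0.0954) and of -0.55 with the offset. Over the 16 libraries EGR1 was the tested gene of at least 1 CPM whose log2 level followed EGR3 most closely (Pearson r = 0.91), followed by EGR2 (0.87) and P2RY1, a purine receptor (0.85). These are descriptions over 16 libraries in which the same pair of DMSO libraries is extreme. EGR2 just missed the rule, at 14.2 and 16.2 CPM against a treated maximum of 15.1 CPM.

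Of 36 immediate-early genes listed, 35 were tested and DMSO was the higher group in 26. The median log2 difference was -0.21 against -0.01 over all tested genes. With the offset DMSO was higher in 32 of 35 and the median was -0.31, since the list has a GC median of 56.7%. Both DMSO libraries lay above the treated range for 6 members and below it for 0, where the shares over all tested genes were 3.59% and 3.54%. Beside EGR1 and EGR3 these were NR4A3, a nuclear orphan receptor, at 10.2 and 10.6 CPM against 5.90 to 9.20 CPM, and the zinc-finger factor KLF6 at 491 and 459 CPM against 361 to 440 CPM. CCN1, a secreted matrix protein, lay at 342 and 349 CPM against 261 to 327 CPM. MCL1, an inhibitor of apoptosis, lay at 552 and 550 CPM against 447 to 531 CPM, and alone of the 6 it no longer lay outside with the offset. NR4A2 and JUND lay outside only with the offset, which made 7 members in all, where 1.23% of all tested genes lay above with the offset.

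The other members overlapped. ATF3, a stress-induced factor, measured 123 and 115 CPM in DMSO against 65.8 to 129 CPM, a log2 difference of -0.48 (SE 0.09). DUSP6, which dephosphorylates ERK, measured 20.1 and 23.9 CPM against 12.5 to 21.2 CPM. FOS lay at 456 ± 13.4 CPM against 270.1 to 525 CPM and FOSB at 369.5 ± 19.9 CPM against 157 to 501 CPM. NAB2, a corepressor of EGR proteins, had the opposite order, 42.7 ± 1.80 CPM in DMSO against 43.2 to 64.2 CPM, and a log2 difference of 0.23 that was 0.00 with the offset. The summed level of the list, 4527 and 4533 CPM in DMSO, lay inside the treated range of 3425 to 4758 CPM.

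EGR1 is a textbook target of serum response factor, which binds the CArG box. The 250 bases before its start (RefSeq, GRCh38.p14, chr5:138465229-138465478, plus strand) are shown with the matches in capitals.
EGR1: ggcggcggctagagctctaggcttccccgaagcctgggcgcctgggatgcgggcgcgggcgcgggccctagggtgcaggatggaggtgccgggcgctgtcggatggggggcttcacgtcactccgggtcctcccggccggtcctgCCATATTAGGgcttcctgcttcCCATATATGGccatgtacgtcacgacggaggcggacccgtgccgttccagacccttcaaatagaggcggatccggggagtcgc
The matches lie 105 to 96 and 83 to 74 bases before the start. A CArG box on either strand was found in 454 of 35116 RefSeq promoters of 300 bases (1.29%), the cyclic AMP response element TGACGTCA in 649 (1.85%) and the EGR motif GCGTGGGCG in 279 (0.794%), and none of the 3 was found in the windows of KLF6 and NR4A3. The windows of EGR3, CCN1 and MCL1, which also lay above the treated range, are not reported here. A match is a description of the letters only.

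**Figure D4:**
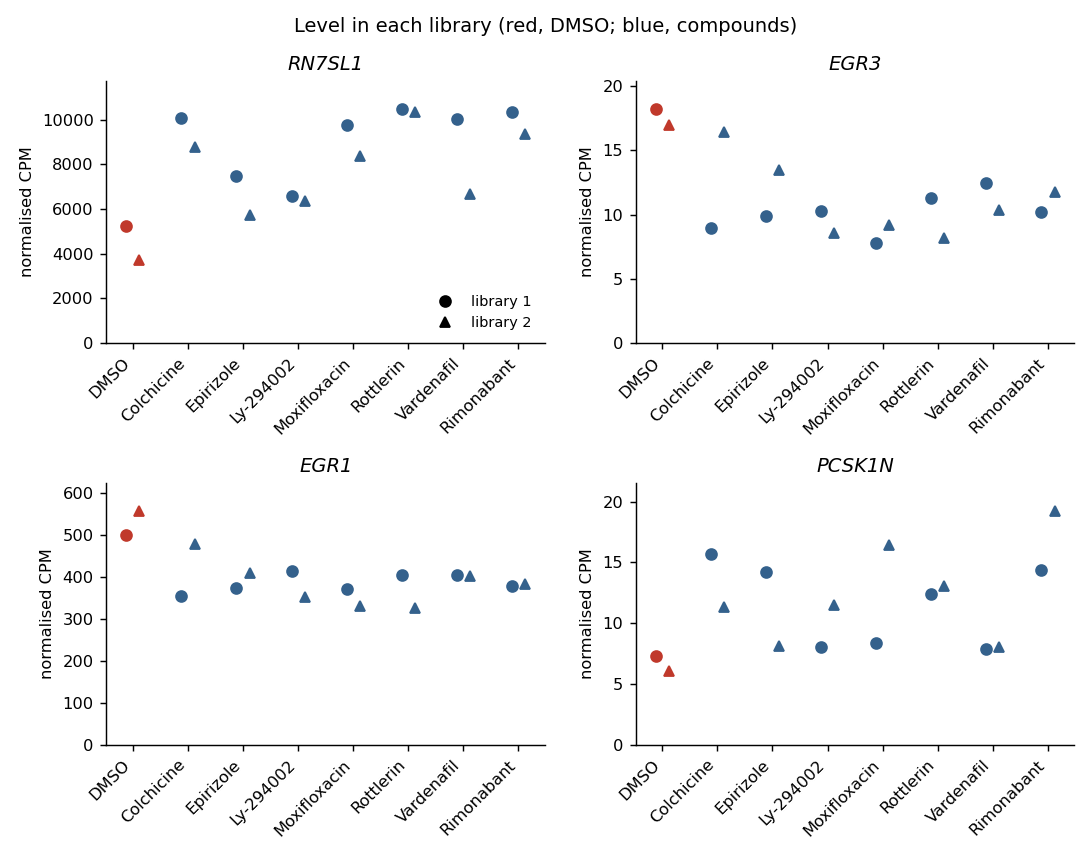
Normalised CPM (vertical axes, from 0) of RN7SL1, EGR3, EGR1 and PCSK1N in each library by group (horizontal axes), DMSO in red and the compounds in blue, circles for library 1 and triangles for library 2. Both DMSO libraries lie lowest for RN7SL1 (5240 and 3722) and PCSK1N (7.28 and 6.02) and highest for EGR3 and EGR1, where Colchicine 2 comes nearest.

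PCSK1N was lowest in the 2 DMSO libraries, at 7.28 and 6.02 CPM. The treated libraries ran from 7.85 CPM in Vardenafil 1 through a median of 11.98 to 19.3 CPM in Rimonabant 2. Vardenafil 1, Ly-294002 1, Vardenafil 2, Epirizole 2 and Moxifloxacin 1, at 7.85 to 8.39 CPM, lay close to DMSO 1. The log2 difference was 0.82 (SE 0.27, adjusted p = 0.160). With the offset it was 0.54 (adjusted p = 0.484) and the groups overlapped. PCSK1N has 65.0% GC, and whether this accounts for its order was not tested. The genes whose levels followed it most closely over the 16 libraries were NINJ1 (Pearson r = 0.96), the actin-bundling gene FSCN1 (0.95) and the lipase PNPLA3 (0.95), with transcript GC of 63.2%, 65.3% and 54.7%. For RN7SL1 they were TMEM256 (0.93), UQCRQ (0.91) and PDCD6 (0.91).

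The other genes of hormone processing and granules overlapped. Of 28 tested, PCSK1N alone lay outside the treated range, as 7.13% of all tested genes did. DMSO was higher in 17 and the median log2 difference was -0.06 (-0.04 with the offset). PAM, which amidates peptides, measured 284 and 287 CPM against 198 to 313 CPM, and CPE, which trims prohormones, 108 and 81.6 CPM against 62.1 to 119 CPM. SYT4, a synaptotagmin, measured 5.71 and 2.65 CPM against 1.11 to 5.07 CPM. Among the 23 endocrine genes DMSO was higher in 13 and lower in 10, with a median of -0.11.

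The proteins that work with 7SL RNA were split. Of 20 genes of the signal recognition particle and the translocon of the endoplasmic reticulum, both DMSO libraries lay above the treated range for SRP54, SRP72, SEC62 and SEC63 and below it for SSR4, 4 and 1 of 20, where the shares over all tested genes were 3.59% and 3.54%. The list has a median GC of 44.97%, and in its GC bin 5.82% of all genes lay above. The 4 genes above have 38.65% to 41.02% GC, in the bin of lowest GC, where 9.93% of all genes lay above. SSR4 is in the bin of highest GC, where 12.5% lay below. With the offset 3 of the 20, SRP54, SEC62 and SEC63, stayed above, where 1.23% of all tested genes did. SRP54, which binds signal peptides, measured 79.5 CPM in both DMSO libraries against 56.5 to 74.5 CPM. SEC62 measured 154 CPM in both against 87.7 to 139 CPM, a log2 difference of -0.29 (SE 0.08) and of -0.15 with the offset, still outside. SSR4, a subunit of the translocon-associated complex, measured 42.9 and 37.3 CPM against 44.5 to 60.8 CPM, and overlapped after the offset, as did SRP72. The GC contents were 39.5% for SEC62 and 60.0% for SSR4, and the median of the list was -0.04 (0.03 with the offset).

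Mitochondrially encoded transcripts were highest in DMSO. They took 2.66% and 2.84% of the reads of the DMSO libraries and 1.43% (Rimonabant 2) to 2.52% (Vardenafil 2) of those of the treated ones. Of the 15 genes, the 13 that encode proteins were all higher in DMSO, with a median over the 15 of -0.43 (-0.33 with the offset). Both DMSO libraries lay above the treated range for 9, where 3.59% of all tested genes did. The list has a median GC of 44.27%, and in its GC bin 5.82% of all genes lay above. MT-ND2, of complex I, measured 1500 and 1759 CPM against 534 CPM in Rimonabant 2, a median of 1050 and 1400 CPM in Vardenafil 2, a log2 difference of -0.68 (SE 0.19) and of -0.56 with the offset. MT-CO1, of complex IV, measured 7454 and 7582 CPM against 4559 to 6955 CPM, and MT-CYB, of complex III, 2063 and 2203 CPM against 996 to 1983 CPM. With the offset 7 stayed outside, where 1.23% of all tested genes lay above, and MT-ND3 and MT-ND4L did not. Rimonabant 2 was the lowest library for all 9. MT-RNR1 and MT-RNR2, the ribosomal RNAs that the library preparation removes, had the opposite direction and overlapped, MT-RNR2 at 15.98 ± 8.11 CPM against 5.53 to 147 CPM. Fewer cells of a kind and less RNA per cell cannot be told apart in bulk samples.

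Nuclear genes of oxidative phosphorylation lay the other way. DMSO was lower in 22 of 24, with a median log2 difference of 0.21 (0.20 with the offset). Both DMSO libraries lay below the treated range for NDUFB7, NDUFB2 and NDUFS7 of complex I and for ATP5F1D and ATP5MC1 of the ATP synthase, and for NDUFB7 and NDUFB2 also with the offset. That is 5 of 24, against 3.54% of all tested genes, and 2 with the offset, against 1.79%. NDUFA5, a subunit of complex I outside the list, had the opposite order, 69.1 and 75.8 CPM against 46.3 to 68.6 CPM, and overlapped after the offset. NDUFB7 measured 7.45 and 8.21 CPM against 9.64 to 15.6 CPM, a log2 difference of 0.66 (SE 0.14, 0.38 with the offset). The summed level, 1022 and 1140 CPM, overlapped the treated range of 1113 to 1312 CPM.

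Tubulin and cholesterol genes also tended to be lower in DMSO. Among 13 tubulin genes DMSO was lower in 12, with a median of 0.29 that was 0.17 with the offset. TUBB3, the beta-tubulin of neurons, measured 19.83 and 19.99 CPM against 23.5 to 36.4 CPM. TUBB4B and TUBB2B also lay below the treated range, as 3.54% of all tested genes did, and none of the 3 did with the offset. Among 19 genes of cholesterol synthesis DMSO was lower in 16, with a median of 0.13 (0.11). CYP51A1, which demethylates lanosterol, measured 3.40 and 2.99 CPM against 4.07 to 7.87 CPM, a log2 difference of 0.82 (SE 0.17). Its GC is low, 40.6%, and with the offset the difference was 0.97 and still outside. Its exons are overlapped by annotated loci on both strands, and the strand setting of the counting is not given in the sources used here. MVD and the regulator SREBF2 lay below the treated range without the offset only. With CYP51A1 that is 3 of 19, against 3.54% of all tested genes, and 1 with the offset, against 1.79%.

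Long genes of low GC, listed for their length and composition, all lay higher in DMSO. The list was chosen with earlier results of these data known and joins both traits, so it can test neither. The 14 genes had a median GC of 40.3% and a median log2 difference of -0.23. Of them 9 lay above the treated range, where 3.59% of all tested genes and 9.93% of those in the bin of lowest GC did. CEP290, a protein of the cilium with 34.3% GC, measured 93.9 and 94.7 CPM against 65.1 to 91.2 CPM, and ATRX, a chromatin remodeller, 473 and 492 CPM against 343 to 459 CPM. With the offset the median was -0.09 and only ANKRD12 stayed outside, at a log2 difference of -0.21, where 1.23% of all tested genes lay above. MALAT1, a nuclear noncoding RNA with 39.3% GC, had the same order, at 38660 and 41030 CPM against 26780 to 37230 CPM and overlapping after the offset. For cytosolic ribosomal proteins the outcome was split, with RPL5 and RPL23 above the treated range, RPL28 below it, and a median over 26 genes of 0.08 (0.00 with the offset). Over all tested genes 3.59% lay above and 3.54% below.

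**Figure D5:**
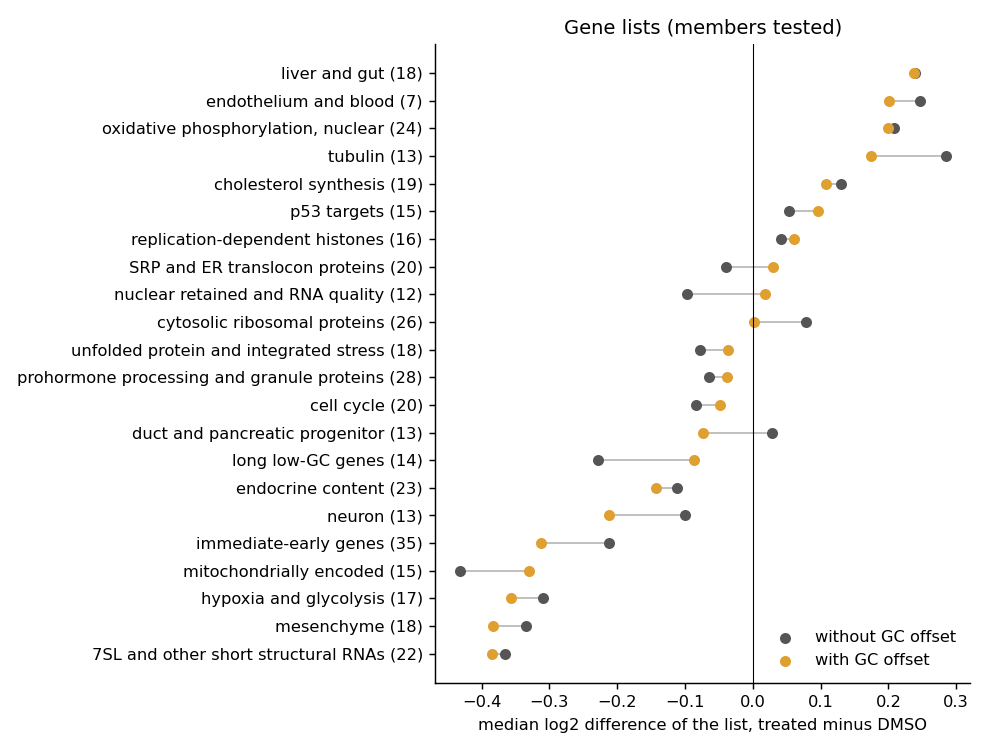
Median log2 difference (horizontal axis, treated minus DMSO) of the tested members of each gene list (vertical axis, number tested in brackets), without the GC offset in grey and with it in orange. Immediate-early genes lie at -0.21 and -0.31 and mitochondrially encoded genes at -0.43 and -0.33, while long low-GC genes lie nearer to 0 with the offset (-0.09) than without it (-0.23).

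Among genes of at least 1 CPM, those of smallest p above the treated range were led by PDE10A, a phosphodiesterase of cyclic AMP and cyclic GMP. It measured 63.9 and 65.6 CPM in DMSO and 40.6 CPM in Moxifloxacin 1, a median of 48.0 and 54.0 CPM in Vardenafil 2. The log2 difference was -0.46 (SE 0.07, adjusted p = 0.0954) and -0.39 with the offset, still outside. PDE10A spans chr6:165327287-165988078 on the minus strand, and its exons overlap those of LINC00602 on the other strand. LIN54, the DNA-binding subunit of the DREAM complex, lay at 30.6 and 36.6 CPM against 20.4 to 26.4 CPM, PRPF38A, a spliceosome component, at 57.7 and 60.6 CPM against 40.3 to 52.4 CPM, and WDR35, of intraflagellar transport, at 23.02 and 22.68 CPM against 13.3 to 20.04 CPM. These 3, SCARNA7 and PDE10A stayed outside with the offset. ZNF721, CASD1, KLHL4, PNISR, ESF1, PCM1 and NDUFA5, the remaining 7 of the 12, did not, with GC contents of 36.7% to 43.1%.

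Those of smallest p below the treated range were MZT2B, SELENON, COL2A1, CYBA, TMEM74B, WDR86, UBL5, SPHK2, CFL1, PRAG1, RN7SL1 and ARHGDIA. UBL5, a ubiquitin-like protein of pre-mRNA splicing with 51.1% GC, measured 33.2 and 26.1 CPM against 35.4 to 57.9 CPM, and its log2 difference was 0.59 (SE 0.11) without and with the offset. COL2A1, the collagen of cartilage, measured 564 and 542 CPM against 589 CPM in Vardenafil 1 to 1009 CPM in Colchicine 1, a log2 difference of 0.48 (SE 0.08) that was 0.25 with the offset, where the groups overlapped. CFL1, which severs actin filaments, lay at 263 and 218 CPM against 268 to 366 CPM and also overlapped after the offset. MZT2B, of the gamma-tubulin ring complex, lay at 15.3 and 14.1 CPM against 17.2 to 33.5 CPM, 0.71 on the log2 scale (SE 0.12) and 0.43 with the offset, still outside.

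The largest differences after the offset were at low levels. GABRG3, a subunit of the GABA-A receptor, measured 7.37 and 7.14 CPM in DMSO and 1.33 CPM in Rottlerin 2 to 6.55 CPM in Epirizole 2, a log2 difference of -1.21 (SE 0.28, -1.15 with the offset). COL15A1, LINC01266 and TMEM158 had DMSO means between 1 and 2 CPM, and COL15A1 had 0 reads in Colchicine 2, where 3 reads correspond to 0.104 CPM. Below the range, TM6SF2, a lipid transport gene of liver and gut, lay at 1.05 and 0.77 CPM against 1.51 to 3.03 CPM, and IL23A, a cytokine subunit, at 0.70 and 0.58 CPM against 0.75 to 1.83 CPM.

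Markers of other cell types overlapped between DMSO and the treated libraries, although mesenchyme genes leaned higher and liver and gut genes lower in DMSO. Of 18 mesenchyme genes 13 were higher in DMSO, the median was -0.33 (-0.38 with the offset) and none lay outside; their summed level was 3804 and 4106 CPM against 2758 to 5143 CPM. Of 18 liver and gut genes 15 were lower in DMSO, with a median of 0.24 and sums of 7361 to 9011 CPM against 6792 to 12240 CPM. At an unadjusted edgeR p under 0.05, 5 mesenchyme genes were higher and 1 lower in DMSO. For liver and gut 6 were lower and 0 higher. Over all tested genes 8.21% were higher and 8.44% lower in DMSO at that p. Neuron genes summed to 109 to 146 CPM in DMSO against 89.4 to 194 CPM, duct and progenitor genes to 1291 to 1372 CPM against 1133 to 1521 CPM, and endothelium and blood genes to 6.78 to 8.73 CPM against 2.93 to 8.74 CPM. Of these markers TUBB3 alone lay outside without the offset, and ALB, below the range, with it, and the part of these cell types in the results above was not tested.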

How the data were processed

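The deposited file held raw counts of reads per gene for 62754 genes in 16 libraries, not normalised by the authors, and every column was matched to a sample by its name. Per the labels' protocols, libraries were made with a KAPA RNA HyperPrep kit that depletes ribosomal RNA (RiboErase), reads were trimmed with Trimmomatic 0.38 and aligned with STAR 2.7.1a, and featureCounts 1.6.0 or HTSeq counted them. Per the submitters' processing notes, HTSeq and GRCh38 were used. The annotation release, strand setting and handling of multiply mapped reads are not given in the sources used here, so near copies, overlapping and antisense genes are uncertain. Title and treatment labels spell 1 compound differently, and Ly-294002 is used here.

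The analysis used edgeR 4.0.16 in R 4.3.3. Genes kept by filterByExpr numbered 24515, with 99.9% of reads, and libraries were scaled by TMM. A quasi-likelihood fit of 8 groups (8 residual degrees of freedom, common biological coefficient of variation 0.165) tested the mean of the 7 compounds minus DMSO, two-sided, with Benjamini-Hochberg adjustment over all tested genes. CPM of single genes are TMM-normalised, and SE is the standard error of the log2 difference. Summed levels of gene lists and the floor of 3 reads are relative to all reads of a library, without TMM. A floor of 3 reads was 0.0977 to 0.129 CPM per library and covers counting error only. GC content is the median over a gene's transcripts in GENCODE 29 (GRCh38), known for 23352 tested genes (95.3%). The GC offset was a smooth curve (6 degrees of freedom) of each library's log2 deviation on GC, from genes of at least 10 reads on average. The fit was tested on simulated data.

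Members and gene lists were chosen with earlier results of these data known. Named by rule were RN7SL1, PCSK1N and EGR3, the 12 non-overlapping genes of smallest p per direction with at least 1 CPM, the 10 per direction that stayed outside with the offset and differed most, up to 4 members of each list, the 3 of highest and of lowest GC at 10 CPM or more, and the 3 closest correlates of each marker. Other list members, the genes at the edge of the rule and those whose value illustrates a list were added after their values were seen, and some genes so named are not reported here. Alternatives were other size factors and filters, DESeq2 1.42.0, a replicate block, a 2-group fit, GC from the longest transcript and leaving out libraries or compounds.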

Additional observations from a re-analysis of the deposited data

How the results depend on the processing

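Calls by edgeR's quasi-likelihood test at an adjusted p of 0.05 numbered 0 higher and 0 lower in the treated libraries. They numbered 619 and 499 with no filter on low counts, 539 and 175 with DESeq2, 0 to 473 and 0 to 260 on leaving out each library, and 0 and 0 under the other size factors, the stricter filter, the 2-group fit, the GC offsets and without any compound. Leaving out Rimonabant 1 gave 473 and 260 and leaving out Epirizole 2 gave 1 and 1 (MZT2B and GABRG3). The cause was not tested. With DESeq2 RN7SL1, EGR3 and PCSK1N had adjusted p of 1.98e-06, 0.0132 and 0.0209. With the replicate block 1 gene was called higher, RN7SL1 (adjusted p = 0.0145), and 0 lower, and with the block and the GC offset 0. The replicate numbers did not pair the libraries: over 28 pairs of groups the correlation of deviations ran from -0.24 to 0.20 (median -0.03) and was above 0.1 in 4.

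The 880 genes above and 868 below numbered 301 and 439 with the GC offset (219 and 301 of them shared), 297 and 459 with GC from the longest transcript, 34 and 95 with a margin of 0.2 on the log2 scale, and 751 to 2890 and 892 to 2796 on leaving out each library. Without DMSO 1 they were 2890 and 2796 and without DMSO 2 they were 2009 and 2107, where a single control library has to lie outside. At 10 CPM or more they were 555 and 765, with DESeq2 size factors 762 and 957, and with library totals only 687 and 996. The difference in GC slope ran from -0.19 to -0.14 on leaving out each library, with -0.14 (exact permutation p = 0.00952, each library counted as a unit of its own) without Rimonabant 2. Single genes were followed only where named and of an unadjusted p under 0.05 in the edgeR fit, so few changes of sign could arise. Of these 144 genes only OIP5-AS1 changed sign, from -0.14 to 0.0102 with GC from the longest transcript. With 2 libraries a group, differences within the spread of a pair were not detectable at this depth.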

Other observations

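Genes of hypoxia and glycolysis were mostly higher in DMSO without lying outside the treated range. Of 17 tested, 14 were higher in DMSO, with a median log2 difference of -0.31 (-0.36 with the GC offset). LDHA, lactate dehydrogenase, measured 711 and 859 CPM in DMSO against 352 to 797 CPM. BNIP3, of mitochondrial autophagy, measured 118 ± 20.5 CPM (SD, n = 2) against 38.9 to 139.5 CPM, and PGK1 measured 364.5 and 421 CPM against 220.3 to 401 CPM. DMSO 2 was the higher of the 2 DMSO libraries for LDHA and PGK1 and lay above all treated libraries for both.

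Of 15 p53 target genes 9 were lower in DMSO, with a median of 0.05 (0.10 with the offset). CDKN1A, the cell cycle inhibitor p21, measured 53.3 and 47.5 CPM against 49.4 to 114 CPM, a log2 difference of 0.43 (SE 0.08, edgeR adjusted p = 0.0954). The compounds were uneven for CDKN1A, with means of 109.9 CPM in Colchicine and 82.4 CPM in Rottlerin. The means of the other compounds ran from 51.5 CPM in Ly-294002 to 65.8 CPM in Rimonabant, against 50.4 CPM in DMSO. None of the 15 lay outside the treated range, nor did any of 20 cell cycle genes, 15 of which were higher in DMSO with a median of -0.08. PCNA, the clamp of replication, measured 33.8 and 31.5 CPM against 17.3 to 32.8 CPM. Of 16 replication-dependent histone genes, H3C10 lay below the treated range, as 3.54% of all tested genes did, at 10.2 and 9.06 CPM against 10.9 to 22.2 CPM. It also did so with the offset (1.79% of all). Of 18 genes of the unfolded protein and integrated stress responses, 3 proteins of the endoplasmic reticulum, PDIA4, CRELD2 and MANF, lay below the treated range (3.54% of all tested genes did), PDIA4 at 175 and 173 CPM against 186.5 to 244 CPM, and PDIA4 and MANF did so with the offset (1.79% of all). ASNS, asparagine synthetase, had the opposite order, 9.55 and 8.98 CPM against 3.65 to 10.8 CPM.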
